A study of Mus musculus with 9 samples.

Results

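The 10 genes described here encode proteins that process, package and release the contents of cytotoxic granules: Ctsc, Ctsw, Srgn, Serpinb9, Lamp1, Nkg7, Rab27a, Unc13d, Stx11 and Stxbp2. They were chosen by gene symbol, and all 10 were found among the 24391 genes of the count tables. RNA sequencing was done on mouse CD8+ T cells activated for 72 h in medium with interleukin 2 at 100 U/mL. In 4 libraries the cells had an LSD1 inhibitor present during activation (LSD1i), which acts on a histone demethylase, and in 5 libraries they were not treated (NT). The labels name neither the inhibitor, its dose, the strain nor the age of the mice, and nothing in them ties a replicate number to an animal or a culture. The p-values reflect how these libraries vary, and part of that may be technical.

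Killer T cells store perforin and granzymes in secretory lysosomes. Granzymes are made as inactive precursors, trimmed by a cathepsin and held on a proteoglycan, and a cytosolic serpin protects the killer cell from leaked enzyme. On contact with a target cell, the granule is carried to the synapse, tethered by a Rab GTPase, primed and fused with the plasma membrane by SNARE proteins. In humans, loss of UNC13D, STX11 or STXBP2 causes familial hemophagocytic lymphohistiocytosis, and loss of RAB27A causes Griscelli syndrome.

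Raw library totals ranged from 15163983 to 29245278 reads. The raw and the batch-corrected table give 4 of the 9 libraries (replicates 1 and 2 of each group) opposite group names, and the labels do not say which names are right. Values and directions below carry the names of the batch-corrected table unless stated. The size of the authors' correction separated replicates 1 and 2 from replicates 3 to 5, called the first and second batch here. T cell markers were abundant, with the sum of 12 genes at 3625 to 3750 CPM, reads scaled to a common library size, in LSD1i and 3231 to 3548 in NT. Of these 12, 1 was higher in LSD1i, 0 were lower and 11 did not pass in edgeR's quasi-likelihood test, with 10 estimates above 0 and those of Cd2 (log2 −0.33) and Cd3e (−0.28) below it. The gene that passed was Cd8a, with 484 ± 20.6 CPM (n = 4) in LSD1i and 373 ± 29.9 CPM (SD, n = 5) in NT (adjusted p = 0.0266). Of 4 markers of CD4 T cells, Cd4 had at most 7 raw reads in any library and Foxp3 at most 4. Zbtb7b was present at 41.8 ± 3.94 CPM in LSD1i and 38.1 ± 7.26 CPM in NT and did not pass (adjusted p = 0.754). Cd40lg, from few reads (25, 26, 16 and 29 in LSD1i 1 to LSD1i 4, against 3, 1, 0, 0 and 6 in NT 1 to NT 5), was higher in LSD1i (log2 3.66 ± 0.54, adjusted p = 0.00295). The part of these marker genes in the results below was not tested.

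None of the 10 granule genes passed the test between LSD1i and NT libraries. With edgeR's quasi-likelihood test and a limit of 0.05 on the adjusted p, 0 of 10 were called, where 3.31% of the 11981 tested genes were called. An unadjusted p under 0.05 was reached by 3 of the 10, Stx11, Ctsw and Serpinb9, where 14.6% of tested genes reached it. DESeq2 and limma voom on the same counts also called 0 of the 10, where they called 5.57% and 3.23% of all tested genes. The median log2 fold change of the 10 genes was 0.03, against −0.02 over all tested genes. The LSD1i and NT libraries overlapped in CPM for each of the 10, whereas 7.86% of tested genes had no overlap. In bulk RNA, fewer cells of a type and less RNA per cell cannot be told apart.

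Missing the threshold does not show that levels were equal, so the intervals matter. In the batch-corrected table, the 95% interval of the log2 fold change lay within 0.5 of 0 for all 10 genes, not adjusted for their number. This window is a fold between 0.707 and 1.41. The same held for 61.5% of all tested genes. The plan did not name the window, and it was not applied to the raw counts. With raw counts under the batch-corrected names and the batch as a term, Rab27a had a larger error (log2 −0.15 ± 0.18, SE). A 95% interval from these values passes −0.5, so the statement on all 10 genes does not carry over to that fit. In the batch-corrected table, the interval reached furthest up for Stx11 (0.49) and furthest down for Ctsc (−0.44).

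**Figure D1:**
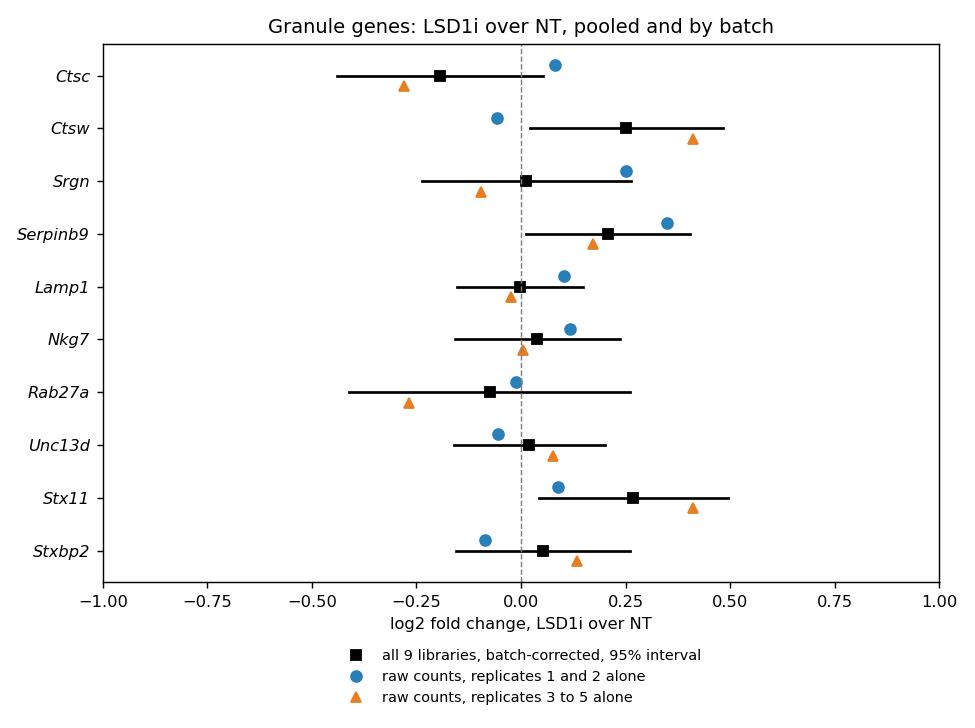
Log2 fold change of LSD1i over NT for each of the 10 granule genes. Squares with lines are the estimates and 95% intervals from all 9 libraries of the batch-corrected table, and circles and triangles are estimates from raw counts of replicates 1 and 2 alone and of replicates 3 to 5 alone. All intervals lie between −0.44 and 0.49, and those of Ctsw, Serpinb9 and Stx11 do not include 0 before adjustment.

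Among the genes that process and hold granule proteases, Ctsc encodes cathepsin C, the dipeptidyl peptidase that removes the activation dipeptide of granzymes. It had 75.3, 90.2, 76.8 and 71.6 CPM in LSD1i 1 to LSD1i 4, against 77.5, 92.2, 86.5, 82.7 and 110.0 CPM in NT 1 to NT 5. The NT 5 library was the highest, and the other 4 NT libraries lay within or just above the LSD1i range. The fold change was 0.874 (95% interval 0.737 to 1.04), with a log2 fold change of −0.19 ± 0.11 (SE) and an adjusted p of 0.493.

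Ctsw encodes cathepsin W, a cysteine protease found mainly in cytotoxic lymphocytes. Its levels were 115, 98.9, 120.0 and 128 CPM in the LSD1i libraries, against 112, 99.0, 97.8, 80.9 and 94.7 CPM in the NT libraries. Of the 4 LSD1i libraries, 3 lay above every NT library, and LSD1i 2 lay among the NT values. The means were 115 ± 12.2 CPM (SD, n = 4) in LSD1i and 96.9 ± 11.1 CPM (n = 5) in NT, a fold of 1.19 (1.01 to 1.40) that did not pass (adjusted p = 0.291). Reads of Ctsw may include some of Fibp, a gene on the other strand whose exons overlap it in GENCODE M21, since no source says that strand was used in counting.

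Srgn encodes serglycin, the proteoglycan core protein that retains granzymes and perforin in the granule. It was measured at 444, 472, 458 and 351 CPM in LSD1i 1 to LSD1i 4, against 361, 441, 417, 417 and 501 CPM in NT 1 to NT 5. The lowest library was an LSD1i library and the highest an NT library, and the means of 431 ± 54.7 CPM in LSD1i and 428 ± 50.8 CPM in NT were nearly the same. The fold was 1.01 (0.848 to 1.20; adjusted p = 0.980).

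Serpinb9 encodes the cytosolic serpin that inhibits granzyme B. Levels of 529, 606, 501 and 571 CPM were found in the LSD1i libraries, against 439, 492, 455, 461 and 541 CPM in the NT libraries. All 4 LSD1i libraries lay above 4 of the 5 NT libraries, with NT 5 inside the LSD1i range. The means were 552 ± 46.4 CPM in LSD1i and 478 ± 40.6 CPM in NT, a fold of 1.15 (1.01 to 1.32) that did not pass (adjusted p = 0.306). Serpinb9 belongs to a mouse serpin cluster with close copies that can share reads.

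Both granule membrane genes showed small differences. Lamp1 encodes the lysosomal glycoprotein CD107a, whose appearance on the cell surface is used as a sign of degranulation. It had 145, 154, 149 and 138 CPM in LSD1i 1 to LSD1i 4, against 139, 149.7, 153, 146 and 145 CPM in NT 1 to NT 5. Both sets of libraries covered almost the same range, and the fold of 0.998 (0.900 to 1.11; adjusted p = 0.993) had the smallest standard error of the 10 genes (0.07 on the log2 scale). Exons of Lamp1 overlap those of Grtp1 on the other strand.

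Nkg7 encodes a membrane protein of cytotoxic granules that is needed in mice for full degranulation. Its 4 LSD1i libraries stood at 379, 388, 352 and 377 CPM, against 329, 386, 345, 337 and 423 CPM in the 5 NT libraries. The LSD1i values lay inside the wider NT range, with means of 374 ± 15.2 CPM in LSD1i and 364 ± 39.5 CPM in NT. The fold was 1.03 (0.896 to 1.18; adjusted p = 0.910).

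**Figure D2:**
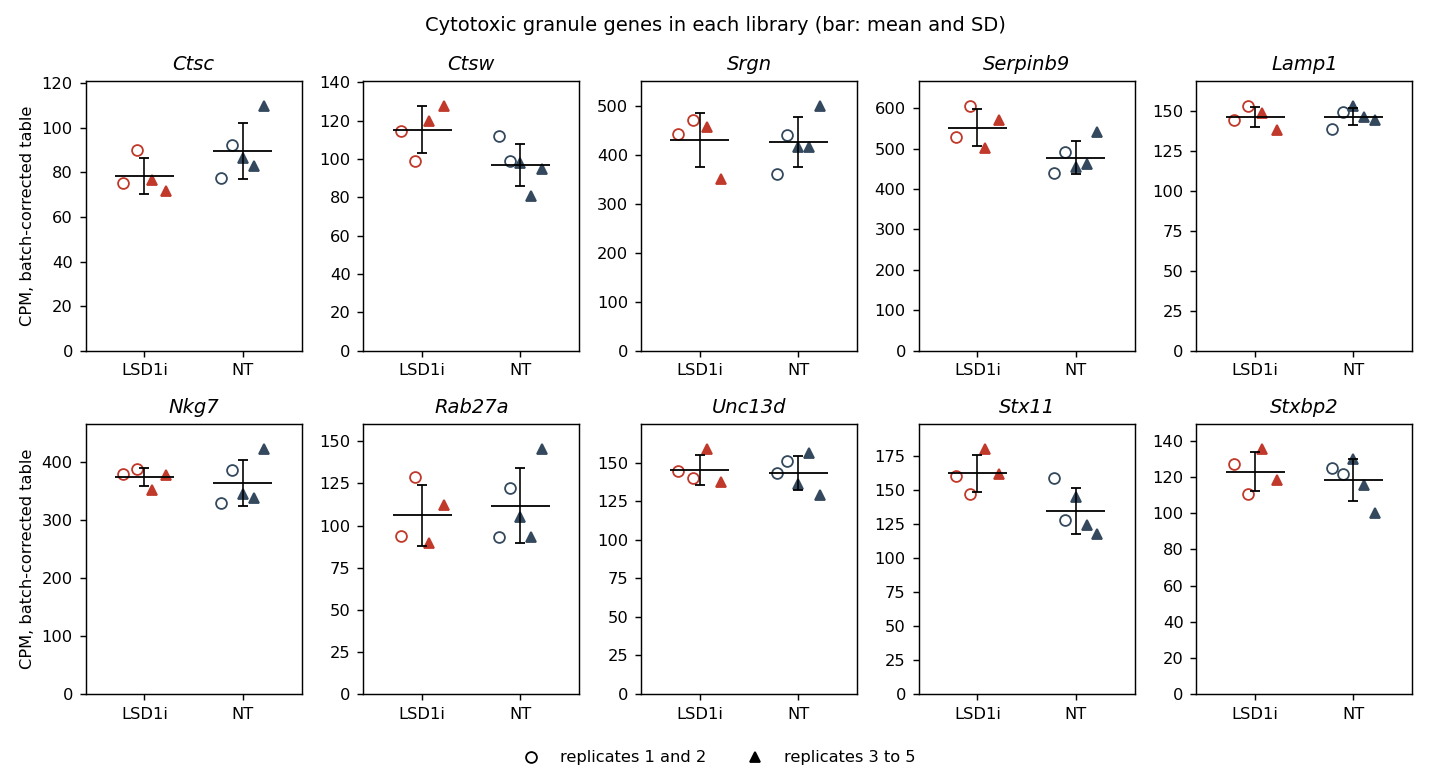
CPM of each granule gene in every library of the batch-corrected table, with LSD1i left of NT. Open circles are replicates 1 and 2, filled triangles replicates 3 to 5, and bars show mean and SD. The groups overlap in every panel, and the means furthest apart as a fold, those of Stx11, are 162 CPM in LSD1i against 135 CPM in NT.

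Of the release genes, Rab27a encodes the small GTPase that tethers granules at the plasma membrane. It had 93.9, 129, 89.4 and 112 CPM in LSD1i 1 to LSD1i 4, against 92.9, 122, 105, 93.2 and 146 CPM in NT 1 to NT 5. Both groups spread widely and covered much the same range, with the highest value in NT 5. The fold was 0.949 (0.752 to 1.20; adjusted p = 0.898), and its log2 standard error of 0.15 was the largest of the 10 genes. A processed pseudogene, Gm27186, overlaps Rab27a exons on the same strand.

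Unc13d encodes Munc13-4, which primes docked granules for fusion. Levels were 145, 140.0, 159 and 137 CPM in the LSD1i libraries, against 143, 151, 136, 156 and 129 CPM in the NT libraries. The groups covered much the same range, and the fold was 1.01 (0.894 to 1.15; adjusted p = 0.956).

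Stx11 encodes syntaxin 11, a SNARE protein of the target membrane. It stood at 160.2, 147, 181 and 162 CPM in LSD1i 1 to LSD1i 4, against 159, 128, 145, 124 and 117 CPM in NT 1 to NT 5. All but 1 of the LSD1i libraries exceeded every NT library, and LSD1i 2 lay below NT 1. The means of 162 ± 13.8 CPM in LSD1i and 135 ± 17.0 CPM in NT gave a fold of 1.20 (1.03 to 1.41), a log2 fold change of 0.27 ± 0.10 and the smallest p of the 10 genes, which did not pass after adjustment (adjusted p = 0.237).

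Stxbp2 encodes Munc18-2, the partner that chaperones syntaxin 11 and assists its fusion step. Its values were 127, 111, 136 and 118 CPM in the LSD1i libraries, against 125, 122, 129.9, 116 and 99.9 CPM in the NT libraries. The groups overlapped almost fully, with a fold of 1.04 (0.897 to 1.20; adjusted p = 0.879). The estimates of Stx11 and of its partner therefore stood at 0.27 and 0.05 on the log2 scale, and the difference between these genes was not tested.

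In the authors' deposited table, 0 of the 10 genes carried a mark of change, where that table marks 94 genes as higher and 44 as lower out of 20052. A mark there goes with both the FDR and the size of the change, since 247 of the 385 genes with an FDR under 0.05 carry none, and the smallest log2 fold change of a marked gene, regardless of sign, was 1.20. Its log2 fold changes for Stx11, Ctsw and Serpinb9 were 0.28, 0.26 and 0.22, with FDR values of 0.401, 0.438 and 0.489.

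Levels per kilobase of exon put the 10 genes in order, using exon lengths of GENCODE M21, an annotation of a later build than the mm9 that the submitters' notes name. Each length was the union of the exons of all annotated transcripts, from 0.914 kb for Nkg7 to 5.81 kb for Ctsc. The order may depend on this choice, and other lengths were not tried. Nkg7 was the highest, at 409 ± 16.6 CPM per kb in LSD1i and 398 ± 43.2 in NT. Srgn followed (196 ± 24.9 CPM per kb in LSD1i, 195 ± 23.1 in NT) and then Serpinb9 (158 ± 13.3 in LSD1i, 137 ± 11.6 in NT), and the per-library ranges of Srgn and Serpinb9 overlapped in LSD1i but not in NT. Ctsw (61.1 ± 6.49 CPM per kb in LSD1i, 51.3 ± 5.88 in NT) and Lamp1 (54.7 ± 2.42 in LSD1i, 54.8 ± 1.98 in NT) were not separated beyond their spread. The release genes lay lower, led by Stx11 at 38.6 ± 3.28 CPM per kb in LSD1i and 32.0 ± 4.03 in NT. Unc13d (31.0 ± 2.08 in LSD1i, 30.6 ± 2.36 in NT), Stxbp2 (29.6 ± 2.61 in LSD1i, 28.5 ± 2.80 in NT) and Rab27a (27.3 ± 4.67 in LSD1i, 28.8 ± 5.75 in NT) came next, with ranges that overlapped each other in both groups and that of Stx11 in NT. In LSD1i, every library of Stx11 lay above every library of these 3 genes. Ctsc was the lowest, with 13.5 ± 1.39 CPM per kb in LSD1i and 15.5 ± 2.16 in NT, below every other member in every library.

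For some of these genes the batches lay further apart in raw counts than the treatment groups did. Srgn averaged 563 CPM in the second batch and 289 CPM in the first, a fold of 1.96 (log2 0.97 ± 0.13, treatment kept as a term). Unc13d went the other way, with 118 CPM in the second batch and 174 CPM in the first, a fold of 0.681 (log2 −0.55 ± 0.09). Stx11 differed 1.34-fold (log2 0.42 ± 0.11), whereas Lamp1 (0.05 ± 0.08) and Rab27a (0.04 ± 0.18) hardly differed. These values describe the libraries and carry no test, since the batches were recovered from the data. In raw CPM, the LSD1i libraries of Srgn had 306, 325, 588 and 487 and the NT libraries 224, 300.3, 553, 556 and 630, so that replicates 1 and 2 of both groups fell below all the others.

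**Figure D3:**
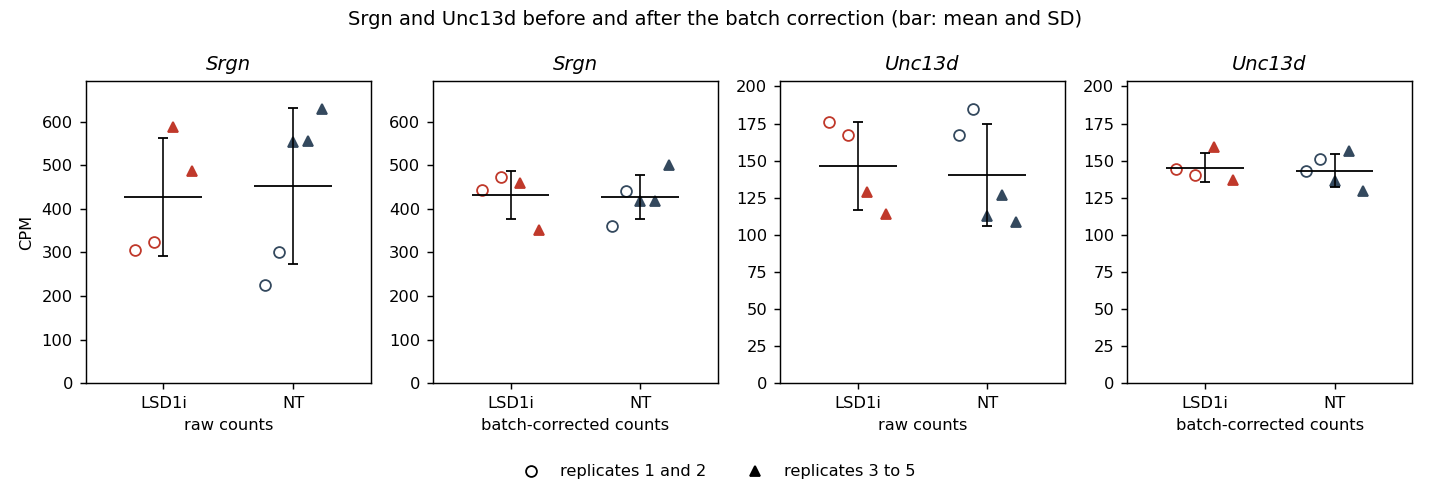
CPM of Srgn and Unc13d in each library, from raw counts and from batch-corrected counts, with LSD1i left of NT, circles for replicates 1 and 2, triangles for replicates 3 to 5, and mean and SD as bars. In raw counts Srgn averages 563 CPM in replicates 3 to 5 and 289 in replicates 1 and 2, Unc13d averages 118 and 174, and after the correction the circles and triangles of both genes mix.

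Checked against raw counts with the batch-corrected names and the batch as a term, again 0 of the 10 genes passed, where 1.85% of tested genes did. The unadjusted p was under 0.05 for 2 of the 10. The share of all tested genes under that unadjusted limit was not counted for this fit, and it was 14.6% in the batch-corrected table. With the replicate number as a block in place of the batch, 0 of the 10 passed and 2.95% of tested genes did. With the batch term, Stx11 stood at 0.27 ± 0.11, Serpinb9 at 0.25 ± 0.10, Ctsw at 0.20 ± 0.11 and Ctsc at −0.11 ± 0.13 on the log2 scale. Their adjusted p was 0.349, 0.329, 0.581 and 0.857 in edgeR. Within the second batch the log2 fold changes of Stx11 and Ctsw were 0.41 ± 0.12 and 0.41 ± 0.10, and within the first they were 0.09 ± 0.18 and −0.06 ± 0.18. Serpinb9 had 0.17 ± 0.10 in the second batch and 0.35 ± 0.19 in the first. Ctsc had −0.28 ± 0.10 in the second and 0.08 ± 0.21 in the first. A test of the difference between batches in edgeR called 0 of 11916 tested genes, and a miss there does not show that the batches agree. Its adjusted p was 0.764 for Ctsw and Ctsc, 0.765 for Stx11 and 0.790 for Serpinb9. The unadjusted p was 0.0473 for Ctsw, 0.126 for Ctsc, 0.193 for Stx11 and 0.325 for Serpinb9. With raw counts under the names of the raw table, 0 of the 10 genes passed in edgeR, 0 had an unadjusted p under 0.05, and 0% of tested genes were called. Fold changes then ran from −0.25 for Srgn to 0.23 for Ctsw on the log2 scale.

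The NT 5 library stood at the edge of the range for 7 of the 10 genes. Of the 9 libraries it was the highest for 4 of them, Ctsc, Srgn, Nkg7 and Rab27a, and the lowest for 3, Unc13d, Stx11 and Stxbp2. How often NT 5 lay at the edge over all tested genes was not counted. Leaving it out moved the log2 fold change of Ctsc to −0.11 and that of Rab27a to 0.04. Without it 0 of the 10 genes passed, where 431 of 11855 tested genes did.

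Beyond these 10 genes, 80 other genes of the pathway could be tested, of 85 listed, and 2 of them were higher in LSD1i, 0 were lower and 78 did not pass. Over all tested genes 2.15% were called higher and 1.16% lower. The median log2 fold change of the 80 was 0.01. Both calls were lysosomal cysteine proteases of the processing list, where 2 of 17 tested genes were higher, 0 were lower and 15 did not pass. An unadjusted p under 0.05 in edgeR was reached by 12 of the 80 and by 7 of these 17, where 14.6% of all tested genes reached it.

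Ctss encodes cathepsin S, a protease best known for trimming the MHC class II invariant chain in antigen-presenting cells. It had 96.8, 107, 100.4 and 105 CPM in LSD1i 1 to LSD1i 4, against 57.5, 58.5, 63.2, 56.9 and 50.5 CPM in NT 1 to NT 5. Every LSD1i library lay above every NT library, and Ctss rose 1.78-fold (1.58 to 2.02; log2 0.83 ± 0.08, adjusted p = 0.000190). The log2 fold change was 0.86 in the second batch and 0.82 in the first. The authors' deposited table gives Ctss a log2 fold change of 0.84 and an FDR of 0.000120 without marking it, and marks Lgmn as higher.

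Lgmn encodes legumain, an asparaginyl endopeptidase that cuts lysosomal cathepsins into their mature chains. At a low level, it had 2.70, 4.33, 1.52 and 3.87 CPM in the LSD1i libraries, from 50, 89, 26 and 77 raw reads, against 0.419, 0.923, 0.805, 0.687 and 1.02 CPM in the NT libraries, from 10, 14, 16, 12 and 21 raw reads. The groups did not overlap, and Lgmn rose 4.11-fold (2.49 to 6.79; log2 2.04 ± 0.33, adjusted p = 0.00544). Under the names of the raw table, Ctss stood at a log2 fold change of 0.07 and Lgmn at −0.22, and neither passed (adjusted p = 0.999 for both).

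Ctss and Lgmn are also expressed by myeloid and B cells, whose part in these results was not tested. The sum of 14 myeloid markers was 6.55 to 9.83 CPM in LSD1i and 6.23 to 9.45 CPM in NT, most of it Cd68, and Elane, Ctsg, S100a8 and S100a9 had 0 reads in all libraries. The sum of 7 B cell markers was 8.12 to 9.38 CPM in LSD1i and 11.2 to 12.5 CPM in NT, most of it Cd79b, the 1 gene of this list that could be tested, which was lower in LSD1i (adjusted p = 0.0317). Mast cell and basophil markers summed to 0.897 to 1.11 CPM in LSD1i and 1.42 to 1.96 CPM in NT, with 5 of 9 at 0 in all libraries, among them Mcpt4, Mcpt8 and Cma1. NK cell markers summed to 2.22 to 3.10 CPM in LSD1i and 2.78 to 4.89 CPM in NT, with Ncr1, Klra4 and Klra8 at 0 in all libraries.

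Other members of the processing list missed the threshold although their groups did not overlap in the batch-corrected table. No overlap was seen for 5 of its 17 tested genes and for 7 of the 80 other pathway genes, where 7.86% of all tested genes had none. Cst7, which encodes cystatin F, an inhibitor of cathepsin C in granules, had 77.0, 85.2, 90.3 and 80.6 CPM in LSD1i 1 to LSD1i 4, against 104, 111, 115, 94.3 and 93.9 CPM in NT 1 to NT 5. Its log2 fold change was −0.31 ± 0.09 (adjusted p = 0.0884). Ctsd, the aspartic protease cathepsin D, averaged 149.9 ± 12.0 CPM in LSD1i and 195 ± 28.6 CPM in NT (−0.38 ± 0.11, adjusted p = 0.105). Serpinb9b, a close relative of Serpinb9, stood at only 1.01 ± 0.403 CPM in LSD1i and 1.86 ± 0.379 CPM in NT (−0.90 ± 0.27, adjusted p = 0.119). In raw CPM under the batch-corrected names, with both batches pooled, the groups overlapped for Cst7 (61.0 to 99.9 in LSD1i, 80.0 to 124 in NT). They also overlapped for Serpinb9b (0.534 to 1.52 in LSD1i, 1.25 to 2.89 in NT), but not for Ctsd. Within each batch, from few libraries, the groups of Cst7 and of Serpinb9b did not overlap. Cst7 had 61.0 and 68.3 in LSD1i 1 and LSD1i 2, against 80.0 and 91.5 in NT 1 and NT 2. In the second batch it had 99.9 and 94.3 in LSD1i 3 and LSD1i 4, against 124, 113 and 111 in NT 3 to NT 5. The inhibitor and the enzyme it acts on, Cst7 and Ctsc, both had estimates below 0.

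**Figure D4:**
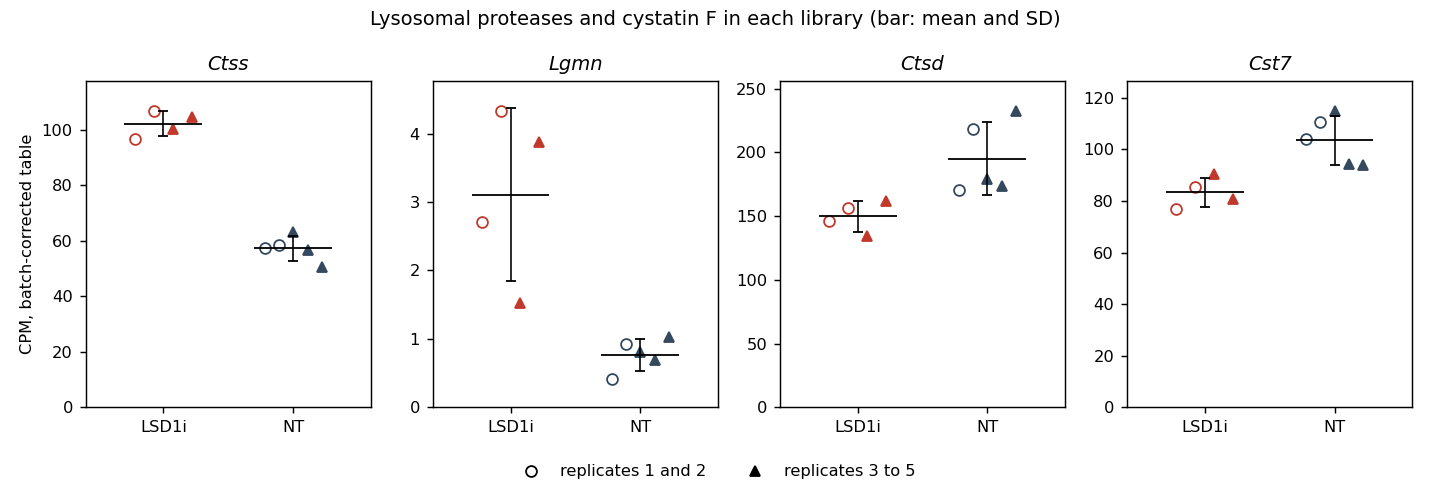
CPM of Ctss, Lgmn, Ctsd and Cst7 in every library of the batch-corrected table, with LSD1i left of NT, circles for replicates 1 and 2, triangles for replicates 3 to 5, and mean and SD as bars. Ctss and Lgmn are higher in all 4 LSD1i libraries than in all 5 NT libraries, and Ctsd and Cst7 are lower in all 4 without passing the adjusted test in edgeR.

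Of the granule and lysosome biogenesis genes, 0 of 33 tested passed in edgeR and 3 had an unadjusted p under 0.05, where 3.31% of all tested genes passed and 14.6% had such a p. Their median log2 fold change was 0.00. These 3 were Ap3s1, a subunit of the adaptor complex AP-3 that sorts lysosomal membrane proteins (31.7 ± 2.66 CPM in LSD1i, 39.95 ± 3.52 CPM in NT; −0.33 ± 0.09, adjusted p = 0.0880), and the Hermansky-Pudlak syndrome genes Hps3 (−0.25 ± 0.09, adjusted p = 0.194) and Hps6 (0.27 ± 0.12, adjusted p = 0.323). Lyst, the gene of Chediak-Higashi syndrome with its giant granules, stood at −0.10 ± 0.15, and Ap3b1, another AP-3 subunit, at 0.00 ± 0.18.

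Of the transport, docking and fusion genes, likewise 0 of 30 tested passed in edgeR, with 2 at an unadjusted p under 0.05 and a median of 0.00, beside the same 3.31% and 14.6% of all tested genes. Both encode synaptotagmin-like proteins that bind Rab27a. Sytl2 had 3.70, 3.66, 5.68 and 6.85 CPM in the LSD1i libraries, against 12.9, 8.11, 8.72, 6.61 and 6.50 CPM in the NT libraries (−0.79 ± 0.25, adjusted p = 0.140), and LSD1i 4 lay above NT 4 and NT 5. In raw CPM under the batch-corrected names its groups did not overlap (2.72 to 6.56 in LSD1i, 7.16 to 12.7 in NT). In the second and first batch its log2 fold change was −0.35 and −1.87. The test of the difference between batches gave Sytl2 an unadjusted p of 0.00232 and an adjusted p of 0.764 in edgeR. Sytl1 stood at 28.2 ± 2.66 CPM in LSD1i and 35.8 ± 5.12 CPM in NT (−0.34 ± 0.12, adjusted p = 0.183), and Orai1, the pore of the calcium channel that triggers release, at 0.18 ± 0.09 (adjusted p = 0.427). DESeq2, which called 3.34% of all tested genes higher and 2.23% lower, passed 2 of the 80 as higher in LSD1i, again Ctss and Lgmn. It passed 4 as lower, namely Cst7 (adjusted p = 0.0228), Ap3s1 (0.0322), Ctsd (0.0365) and Sytl2 (0.0443).

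**Figure D5:**
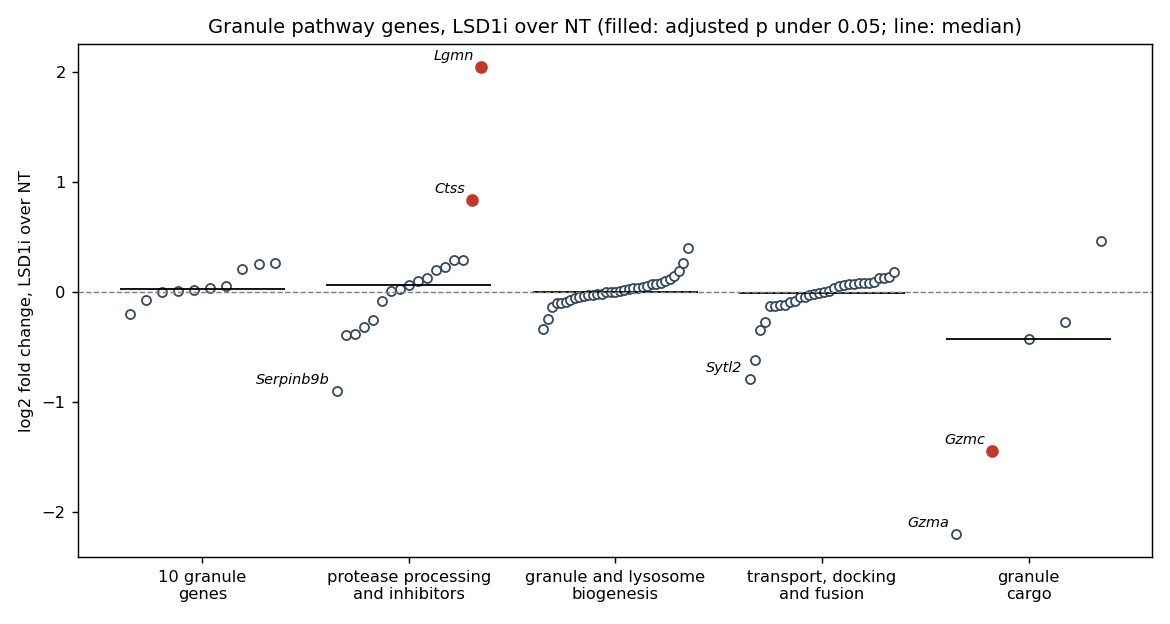
Log2 fold change of LSD1i over NT for each tested gene of the 10 granule genes, the 3 lists of other pathway genes and the granule cargo, sorted within each list. Filled points passed at an adjusted p under 0.05, open points did not, and lines are list medians. The 10 granule genes lie between −0.19 and 0.27, and only Ctss, Lgmn and Gzmc are filled.

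The cargo itself gave 0 genes higher and 1 lower of 5 tested, where 2.15% of all tested genes were higher and 1.16% lower. An unadjusted p under 0.05 in edgeR was reached by 2 of the 5, Gzmc and Gzma, where 14.6% of all tested genes reached it. Gzmc was lower in LSD1i (log2 fold change −1.44 ± 0.29, adjusted p = 0.0192; adjusted p = 0.0786 in raw counts with the batch term, 0.0293 with the replicate block in its place, and up to 0.0733 without LSD1i 1, LSD1i 2 or LSD1i 3). It passed in 12 of 20 alternative fits. Its raw reads were 25, 32, 53 and 117 in LSD1i 1 to LSD1i 4, against 101, 87, 128, 143 and 383 in NT 1 to NT 5. In raw CPM, with both batches pooled, its groups overlapped (1.31 to 5.52 in LSD1i, 3.57 to 17.3 in NT). Within each batch, from few libraries, they did not. Gzmc had 1.31 and 1.55 in LSD1i 1 and LSD1i 2, against 3.57 and 5.42 in NT 1 and NT 2. In the second batch it had 3.10 and 5.52 in LSD1i 3 and LSD1i 4, against 6.05, 7.60 and 17.3 in NT 3 to NT 5. The authors' deposited table marks Gzmc as lower (log2 fold change −1.44, FDR 0.0145). Gzmb had 5577, 6930.3, 5119 and 5825 CPM in LSD1i 1 to LSD1i 4, against 5928, 7375, 6736, 6326 and 8903 CPM in NT 1 to NT 5 (−0.27 ± 0.13, adjusted p = 0.395). Prf1 (−0.42 ± 0.24, adjusted p = 0.489), Gzma (−2.20 ± 0.80, adjusted p = 0.208; −1.28 without NT 5) and Gzmm (0.47 ± 0.28, adjusted p = 0.521) did not pass either. Gzma had 7, 9, 8 and 57 raw reads in LSD1i 1 to LSD1i 4, against 32, 24, 31, 13 and 987 in NT 1 to NT 5. The batch correction moved its count from 24 to 99 in NT 2 and from 987 to 289 in NT 5. Gzmm had only 4 to 29 raw reads per library.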

How the data were processed

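RNA libraries came from a SMARTer mRNA kit, per the labels' protocols. Build mm9 and the tools STAR, featureCounts and edgeR are named in the submitters' processing notes, but no source used here gives their versions or strand settings. The authors deposited raw counts per gene, estimated counts after a batch correction by an unstated method (all values were already whole numbers), and their own table of results holding log2 fold changes, an F score and p-values. Libraries of the count tables were paired by comparing which genes were at 0, which left 0 discordant genes for each match and at least 1336 for the next best. The size of the correction, as a log2 ratio with a pseudocount of 0.5 for 9618 genes averaging at least 100 reads, correlated at 0.755 to 0.980 within replicates 1 and 2 and within replicates 3 to 5, and at −0.962 to −0.790 between these sets.

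All 9 libraries entered 1 quasi-likelihood fit, LSD1i over NT, in edgeR 4.0.16 under R 4.3.3. It used TMM scaling and filterByExpr with a minimum count of 10 and a minimum total of 15, and p-values were adjusted by Benjamini-Hochberg over all tested genes, with a limit of 0.05. Degrees of freedom spent by the authors' batch correction are not counted in this fit. Log2 fold changes carry standard errors, intervals use the t quantile of the fit, and errors of CPM (TMM-scaled) are standard deviations. DESeq2 1.42.0 and limma voom 3.58.1 were alternatives, and scripts were tested on simulated data. The unit and test follow the plan, in which every named gene was either 1 of the 10 genes, a gene of a pathway list that passed or had 1 of its 3 smallest other p-values, granule cargo, a defining marker of another cell type at 0 reads, or a T cell marker that passed. Lyst, Ap3b1, Cd68, Serpinb6a, Cd2, Cd3e, Cd79b and the CD4 T cell markers were named in addition, after their values were seen. Of 85 listed pathway genes 84 were matched to the files by symbol or synonym. The members and lists were chosen with earlier results of these data known. The test of the difference between batches and the batch fold changes were added after the data were seen.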

Additional observations from a re-analysis of the deposited data

How the results depend on the processing

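None of the 10 granule genes passed under any of the 20 alternatives, 11 of them other tools, tables or filters and 9 of them leaving out 1 library, so the counts of genes higher and lower were 0 throughout. Calls over all tested genes ranged from 0 of 11916 with the names of the raw table to 667 of 11981 in DESeq2. Replicates 1 and 2 alone gave 8 of 11837, and replicates 3 to 5 alone 117 of 12078. Raw counts with the batch-corrected names and group only gave 84 of 11916. Where so few genes passed, a miss by 10 genes says little about them. The lowest adjusted p over these was 0.0851 for Stx11, 0.116 for Serpinb9 and 0.133 for Ctsw, each without 1 library. The sign of the estimate changed in 5 of the 11 alternatives for Lamp1, in 3 each for Srgn, Unc13d and Stxbp2, in 2 for Rab27a, in 1 each for Ctsc, Ctsw, Serpinb9 and Nkg7, and in 0 for Stx11. Among the other pathway genes, the 2 that were higher became 0 with raw counts as named in the raw table, 1 with replicates 3 to 5 alone (Ctss) and 0 with replicates 1 and 2 alone, and Lgmn changed sign with the raw names (log2 fold change −0.22). They stayed at 2 without any 1 library. The 0 that were lower became 4 in DESeq2, and without 1 library they ranged over 0 to 1, the 1 being Serpinb6a without NT 5 (adjusted p = 0.0486). The causes were not tested.

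In the table used here, replicate numbers did not pair the libraries: deviations from the group means in the batch-corrected table correlated at −0.16, 0.48, 0.12 and −0.39 for numbers 1 to 4, and no LSD1i library correlated best with its own number. In raw counts with the batch-corrected names, where the batches remain, these were 0.59, 0.84, 0.76 and 0.61, and LSD1i 2 and LSD1i 3 correlated best with their own number. With the number as a replicate block, the count over all genes moved from 397 to 326 in the batch-corrected table, 0 of the 10 genes passed, and 2 other pathway genes were higher and 0 lower. The block on raw counts with the batch-corrected names gave the same counts for both lists, and over all genes it gave 352 calls, against 220 with the batch term. Each of the 10 genes had at least 1168 reads in every library, whereas Lgmn had 10 to 89.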
